A study of Homo sapiens with 19 samples.

Results

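Endoplasmic reticulum (ER) unfolded protein response genes are described here across RNA libraries of 3 human cell lines, with RNA-targeting knockdowns of the splicing regulator RBFOX2 in 1 of them. The 10 genes are a panel of the response chosen by name, with earlier results of these data known: HSPA5, HSP90B1, DNAJB9, DNAJC3, HERPUD1, SDF2L1, PDIA4, CALR, HYOU1 and XBP1. They are 10 of the 22760 genes with at least 1 read on an intron of their own, and all 10 passed the filter on low counts in every fit. Each level is the number of reads that cross the annotated introns of a gene, scaled to 1000000 such reads in the library (CPM), so it measures spliced RNA and is compared within a gene and not between genes.

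The study used 19 libraries of ribosomal RNA-depleted RNA. From A375, a melanoma line, come 1 total, 1 nuclear and 1 cytoplasmic library, and there is 1 total RNA library each of HEK293, an embryonic kidney line, and of HUES66 wild type, a line of embryonic stem cells. The other 14 libraries came from HUES66 cells that all received doxycycline at 1 µg/ml, the controls included: 3 control libraries (genotype WT in the labels), 3 with RBFOX2 total knockdown (total KD) and 4 with each of the isoform knockdowns, RBFOX2 N-short knockdown (N-short KD) and RBFOX2 N-long knockdown (N-long KD), harvested at 24, 48 or 96 hr. The series title names the RNA-cutting enzyme Cas13d as the knockdown tool. The labels do not say how many clones or cultures stand behind a library, so p-values measure the spread between these libraries, which may be technical. The A375 cytoplasmic RNA was the supernatant of cells opened with the detergent Triton X-100 in a low-salt buffer, and the nuclear RNA was that of the washed pellet.

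The libraries fall into 4 sets by time and, at 24 hr, by replicate number. The first 24 hr set has all knockdowns but no control, the second lacks total KD but has a control, and the 48 and 96 hr sets hold 1 library of each of the 4 groups. A control and a total KD library therefore stand side by side in 2 sets only. For the wild-type HUES66 library the labels name neither doxycycline nor a time, while its description uses the name given to the controls. Its place in the first 24 hr set is therefore not settled, and it was used in the knockdown tests only as an alternative control.

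The unfolded protein response is the way a cell adjusts its ER to a load of unfolded protein. Its sensors are the ER membrane proteins IRE1 (gene ERN1), PERK (EIF2AK3) and ATF6. IRE1 cuts a short intron out of XBP1 mRNA, which shifts the reading frame to yield an active transcription factor, ATF6 is released by proteolysis to become one, and PERK phosphorylates a translation factor, which favours translation of ATF4. XBP1 and ATF6 act on promoter elements of chaperone genes, and ATF4 acts on genes of amino acid supply and stress. Embryonic stem cells also need this folding machinery without stress, for the matrix and signalling proteins they secrete.

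The intron by which IRE1 activity is usually read is shown first because these files cannot show it. Its sequence, from the GENCODE 29 transcripts on GRCh38, lies within the coding sequence of XBP1 on the minus strand. The annotation places it at chr22:28796122-28796147 in one transcript and 2 bases further in another, with the same spliced product, and the capitals mark its 26 bases in the first placement.
XBP1: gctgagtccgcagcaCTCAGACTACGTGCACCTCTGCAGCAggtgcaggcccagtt
The shortest intron listed in each of the 19 files was 50 bases long, and the shortest of the 13 junctions listed within XBP1 was 76 bases. A 26-base intron is thus below the length the files list, and the level of XBP1 given here holds both the cut and the uncut mRNA.

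Promoter elements of the response are shown next, since 7 of the 10 genes carry one near their start. RefSeq promoters (GRCh38.p14, 250 bases before to 50 after each start) were searched on both strands for the ER stress element (ERSE, CCAAT and CCACG with 9 bases between), its second form (ERSE-II, ATTGG and CCACG with 1 base between) and the unfolded protein response element (UPRE, TGACGTGG). All 10 genes matched the promoter table, with 12 windows. ERSE was found in HSPA5, HSP90B1, CALR and XBP1 and in 27 of all 35116 promoters (0.0769%). ERSE-II was found in HYOU1, HERPUD1 and SDF2L1 and in 19 promoters (0.0541%). UPRE was found in HYOU1 alone of the 10, where it overlaps an ERSE-II, and in 256 promoters (0.729%). No match was found in these windows of DNAJB9, DNAJC3 and PDIA4. The matches are descriptions of letters and not of binding. Each line reads in the direction of the gene, with the motif or its reverse complement in capitals. HSP90B1 holds 2 ERSE matches and HYOU1 holds 2 ERSE-II matches, of which the one farther from the start is shown.
HSPA5, chr9:125241381-125241419, minus strand, ERSE: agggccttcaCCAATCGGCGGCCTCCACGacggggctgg
HSP90B1, chr12:103930206-103930244, plus strand, ERSE: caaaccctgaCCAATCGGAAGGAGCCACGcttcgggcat
CALR, chr19:12938374-12938412, plus strand, ERSE: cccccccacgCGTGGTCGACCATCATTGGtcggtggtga
XBP1, chr22:28800593-28800631, minus strand, ERSE: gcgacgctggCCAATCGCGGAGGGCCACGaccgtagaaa
HERPUD1, chr16:56932015-56932045, plus strand, ERSE-II: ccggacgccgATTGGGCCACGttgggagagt
HYOU1, chr11:119057370-119057400, minus strand, ERSE-II: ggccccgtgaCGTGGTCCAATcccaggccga
SDF2L1, chr22:21642104-21642134, plus strand, ERSE-II: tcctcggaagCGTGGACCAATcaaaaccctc

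The libraries held 6499183 to 27937149 junction reads, of which 93.4% to 94.8% lay on annotated introns of 1 gene and entered the counts. RBFOX2, the targeted gene, stood at 126, 129 and 133 CPM in the controls and at 51.1, 80.2 and 83.3 CPM in total KD, a log2 fold change of -0.82 (SE 0.080). The N-long KD libraries held 76.7 to 92.7 CPM (-0.57, SE 0.071) and the N-short KD libraries 113 to 128 CPM (-0.06, SE 0.069), which overlaps the controls. The gene sum counts both isoforms, so it does not check the N-short label. All 7 stem cell markers were detected in the HUES66 libraries, and markers of other cell types were detected in the 14 treated ones too. Of the 5 fibroblast markers 4 were detected, with a summed 368 to 579 CPM and DCN at 0, beside 9.25 CPM in A375, and of the 5 neural markers 4 were, with a summed 34.9 to 48.2 CPM and NEUROG2 at 0. In HEK293 3 of the 6 melanoma markers with introns were at 0, and in A375 all 6 were detected. Of the 7 stem cell markers 4 were detected in A375, with a summed 9.63 CPM and NANOG, DPPA4 and TDGF1 at 0. In HEK293 4 of the 7 were detected too, with a summed 50.8 CPM and NANOG, LIN28A and TDGF1 at 0. The 6 HEK293 markers were all detected in HEK293, with a summed 97.4 CPM. In A375 5 of these 6 were detected, with a summed 51 CPM and NEFM at 0.

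In total KD 1 of the 10 genes rose and 2 fell against control, all by small amounts. HERPUD1, an ER membrane protein of the complex that sends misfolded proteins to degradation, rose to 1.40-fold. HSP90B1, the HSP90 chaperone of the ER, fell by 7.91%, and PDIA4, a disulfide isomerase, fell by 10.0%. The other 7 genes did not pass the test, among them HSPA5 (BiP), the HSP70 chaperone of the ER whose rise is the usual sign of the response. The 3 calls are set against 2.20% of all 13628 genes called in this comparison, 138 higher (1.01%) and 162 lower (1.19%, edgeR's quasi-likelihood test, adjusted p under 0.05). In bulk RNA a change in the share of cells that express a gene and a change in RNA per cell cannot be told apart. The summed level of the 7 stem cell markers was 3236 to 4261 CPM in the controls and 3731 to 4865 CPM in total KD, and its part in these results was not tested.

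HERPUD1 lies at chr16:56932048-56944863 on the plus strand (hg38, GENCODE 29). It stood at 21.9, 16.2 and 23.9 CPM in the controls of 24 hr replicate 2, 48 hr and 96 hr, and at 33.0, 26 and 32.4 CPM in total KD of 24 hr replicate 1, 48 hr and 96 hr. Every total KD library lay above every control library, and above both isoform knockdown libraries of its own set. At 48 hr total KD held 1.60 times the control level (95% interval 1.34 to 1.92, for counting error only), and at 96 hr 1.35 times (1.16 to 1.59). Over all 14 libraries the fitted log2 fold change was 0.48 (SE 0.095, adjusted p = 0.0019 by edgeR). The difference passed the test in each of the 14 fits that left out 1 library, with values from 0.40 to 0.54. The largest adjusted p among these fits was 0.050 by edgeR after rounding, so the call can lie at the threshold. DESeq2 gave the same log2 fold change of 0.48 (SE 0.12, unadjusted p = 5.3e-05) but HERPUD1 is among 7662 genes to which it assigned no adjusted p, under its own filter on low means.

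HSP90B1 (chr12:103930107-103953645, plus strand) was lower in total KD than in control within both sets that allow the comparison. Its controls held 1857, 1627 and 1983 CPM and its total KD libraries 1602, 1515 and 1898 CPM, so the groups overlap across sets. The total KD library was the lowest of its set at 24 hr replicate 1, at 48 hr and at 96 hr. The log2 fold change was -0.12 (SE 0.032, adjusted p = 0.036 by edgeR). The call was lost in 11 of the 14 fits without 1 library and held only when a knockdown library of 96 hr was left out, while the values stayed between -0.17 and -0.08.

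PDIA4 (chr7:149003062-149028641, minus strand) was likewise lower in total KD within both sets. It stood at 337, 351 and 368 CPM in the controls and at 329, 310 and 351 CPM in total KD, again lowest of its set in each of the 3 sets with total KD. The log2 fold change was -0.15 (SE 0.039, adjusted p = 0.026 by edgeR). This call was lost without total KD at 24 hr, total KD at 48 hr, control at 48 hr or control at 96 hr, with values from -0.20 to -0.11. With a term for time alone in place of the library set, neither HSP90B1 nor PDIA4 passed and HERPUD1 did.

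Among the HSPA5 partners, DNAJC3, a J-domain cochaperone that also restrains PERK, had a log2 fold change of -0.16 (95% interval -0.29 to -0.03, adjusted p = 0.27 by edgeR). DNAJB9, another J-domain cochaperone, was at 0.25 (-0.18 to 0.68), with 22 to 67 reads a library and so the widest interval. Its total KD level was 0.782 times the control at 48 hr (0.517 to 1.18, for counting error only) and 1.95 times at 96 hr (1.30 to 2.96). HYOU1, a nucleotide exchange factor for HSPA5, was at -0.05 (-0.12 to 0.02), and SDF2L1, which binds a cochaperone complex of HSPA5, at 0.10 (-0.27 to 0.47). SDF2L1 of total KD was likewise at 0.942 times the control at 48 hr (0.641 to 1.39) and 1.41 times at 96 hr (1.05 to 1.91). HSPA5 itself was at -0.07 (-0.14 to 0.01) and CALR, a calcium-binding chaperone of glycoproteins, at -0.04 (-0.11 to 0.04). For these last 2 and HYOU1 the upper ends of the intervals were at most 0.04. These intervals are of the fit over all sets together, so a rise in a single set can be larger. CALR of total KD was at 0.927 times the control at 48 hr and 1.06 times at 96 hr. Both counting intervals of CALR left out 1. HSPA5 of total KD was at 0.992 times the control at 48 hr (0.953 to 1.03) and 0.974 times at 96 hr (0.942 to 1.01). HYOU1 of total KD was at 0.955 times (0.921 to 0.990) and 0.978 times (0.946 to 1.01). Of these intervals for HSPA5 and HYOU1 only that of HYOU1 at 48 hr left out 1.

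XBP1, the transcription factor (chr22:28794555-28800597, minus strand), did not pass either. It stood at 43.1, 49.8 and 52.5 CPM in the controls and 64.6, 56.9 and 61.0 CPM in total KD, with no overlap between the groups. At 48 hr total KD held 1.14 times the control level (95% interval 1.02 to 1.27), and at 96 hr 1.16 times (1.04 to 1.30). The log2 fold change of 0.19 (SE 0.064) did not pass (adjusted p = 0.14 by edgeR), and it passed when the wild-type library was taken as the control of the first 24 hr set (0.21, adjusted p = 0.019 by edgeR). The isoform knockdowns also held more XBP1 in the first set at 24 hr than in the second, 60.6 against 42.1 CPM for N-short KD and 56.1 against 44.6 CPM for N-long KD. Within sets N-long KD held 1.03, 1.10 and 1.13 times the control level at 24, 48 and 96 hr. Of these only the last had an interval above 1 (1.01 to 1.25). N-short KD held 0.978, 1.03 and 1.05 times. Total KD held 1.15 times the N-long KD level in the first 24 hr set, and 1.03 times at 48 and at 96 hr.

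**Figure D1:**
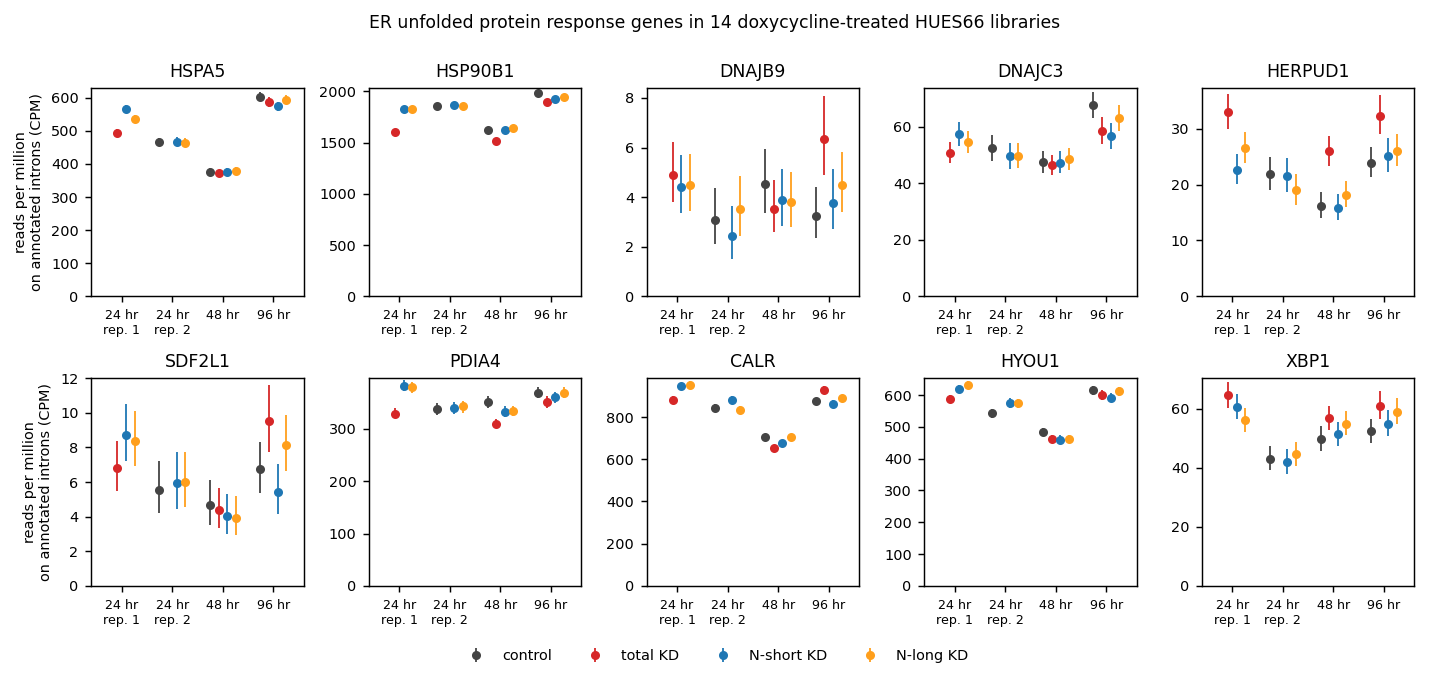
Levels of the 10 genes (CPM, vertical axis from 0) in each of the 14 doxycycline-treated HUES66 libraries by library set; points are libraries and bars are 95% Poisson intervals of the count. HERPUD1 is highest in total KD in each of the 3 sets that hold one (26 to 33.0 CPM), and most other genes move more between sets than between knockdowns, as HSPA5 does (373 to 603 CPM).

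The rest of the response was read from lists of related genes. Neither the 19 other ER chaperones and folding enzymes nor the 18 genes of ER-associated degradation held a gene that passed in total KD. None of the 12 sensors and regulators passed either. At an unadjusted p under 0.05 by edgeR were 5, 3 and 0 genes of these lists in that order. The same held for 5 of the 10 genes and for 1767 of all 13628. The medians of these lists were -0.02, -0.01 and 0.03 on the log2 scale, beside -1.9e-04 over all genes tested and -0.04 over the 10 genes. CANX, the membrane-bound relative of CALR, was at -0.03 (SE 0.037) and PDIA3, a disulfide isomerase that works with both, at -0.08 (SE 0.030, adjusted p = 0.21 by edgeR). Genes named after their values were seen are EDEM1, a protein of ER-associated degradation and a target of XBP1, at 0.30 (SE 0.10, adjusted p = 0.14 by edgeR), and HERPUD2, the relative of HERPUD1, at 0.02 (SE 0.094). The sensors themselves, also named afterwards, were at 0.15 (ERN1, SE 0.15), -0.08 (EIF2AK3, SE 0.073) and 0.08 (ATF6, SE 0.068). Of 15 genes of ER translocation 1 was called, SPCS3 of the signal peptidase, which fell (-0.24, SE 0.062, adjusted p = 0.026 by edgeR). The SPCS3 call was lost in 7 of the 14 fits without 1 library, with values from -0.31 to -0.20. It was also lost with a term for time alone (adjusted p = 0.28 by edgeR) and with 48 and 96 hr alone (adjusted p = 0.13 by edgeR). None of 14 cytosolic and mitochondrial heat shock genes passed, and HSP90AB1, the HSP90 of the cytosol, was at -0.02 (SE 0.029).

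Of the 12 genes of the PERK-ATF4 branch 9 rose in total KD and none fell, with a median log2 fold change of 0.88. Over all 13628 genes 1.01% were called higher and 1.19% lower. The list holds many genes that ATF4 also serves in amino acid shortage, so it is not specific to the ER, and it too was drawn up with earlier results of these data known. CHAC1, a glutathione-degrading enzyme, held 1.49, 3.21 and 1.98 CPM in the controls and 14.1, 8.16 and 8.17 CPM in total KD, with no overlap. In this paragraph the 24 hr control is of the second 24 hr set and the 24 hr total KD library of the first. N-short KD held 3.65 CPM of CHAC1 in the first and 1.75 CPM in the second, and N-long KD 3.90 and 3.40 CPM. Within the first 24 hr set CHAC1 of total KD was 3.61 times N-long KD (95% interval 2.66 to 4.98) and 3.86 times N-short KD (2.80 to 5.41). At 48 hr it reached 2.54 times the control level (95% interval 1.74 to 3.80), at 96 hr 4.12 times (2.61 to 6.72), and 1.86 in the log2 fit (SE 0.22, adjusted p = 4.2e-07 by edgeR). DDIT4, an inhibitor of mTORC1 signalling, was at 1.66 (SE 0.19), with groups that overlap across sets (15.2 and 6.77 CPM in the controls of 24 and 48 hr, and 12.5, 19.9 and 6.63 CPM in total KD). TRIB3, a pseudokinase that binds ATF4, was at 1.07 (SE 0.25). PSAT1, an enzyme of serine synthesis, was at 0.69 (SE 0.046), from 253, 285 and 273 CPM in the controls to 462, 523 and 399 CPM. ATF4 itself rose by 0.26 (SE 0.054, adjusted p = 0.0040 by edgeR), from 103, 90.0 and 89.5 CPM in the controls to 126, 117 and 100 CPM. ATF3, SESN2, CTH and VLDLR were the other called genes, with log2 fold changes of 1.02, 0.74, 0.36 and 0.31. DDIT3, the stress factor CHOP, was at 1.41 (SE 0.42, adjusted p = 0.075 by edgeR), ASNS at 1.19 (SE 0.44, adjusted p = 0.19) and PPP1R15A, the phosphatase subunit that ends PERK signalling, at 0.22 (SE 0.29, adjusted p = 0.83). DESeq2 called 3 of the 12, ATF4, CTH and PSAT1, and gave no adjusted p to 8. Without control at 48 hr or total KD at 48 hr 5 of the 12 were called, and with a term for time alone 4. Under that term DDIT4 was at 0.81 (adjusted p = 0.56 by edgeR), CTH at 0.23 (adjusted p = 0.49) and VLDLR at 0.04 (adjusted p = 0.95).

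**Figure D2:**
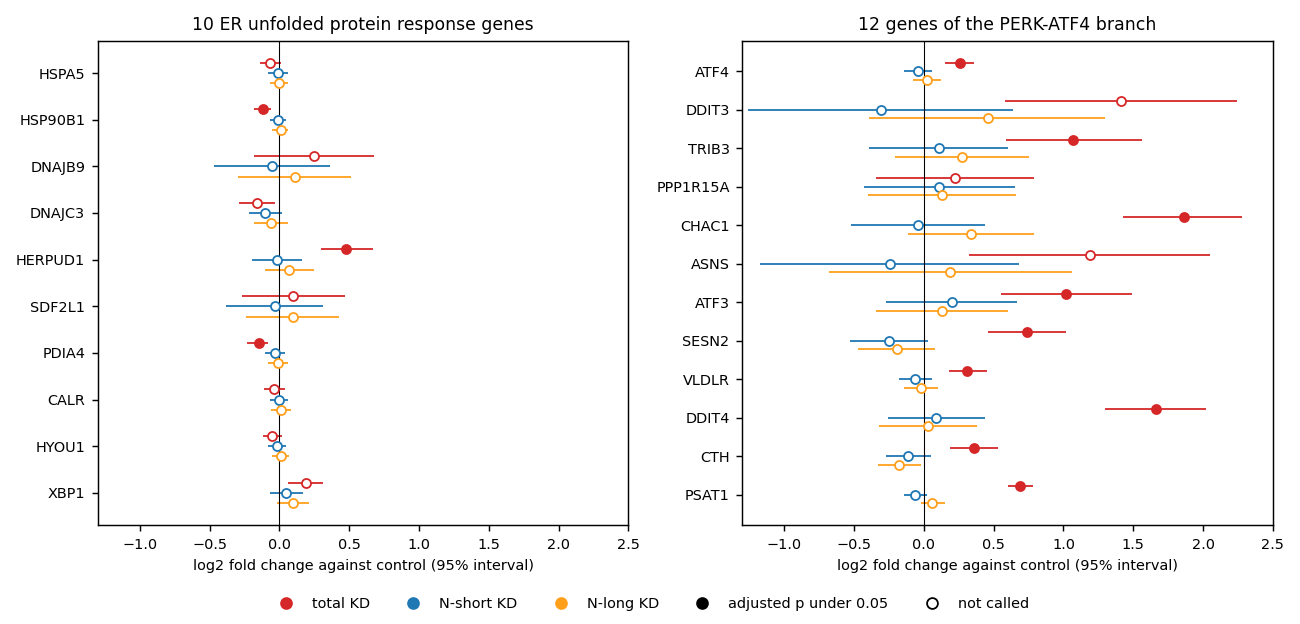
Log2 fold change against control (horizontal axis) with its 95% interval for the 10 genes on the left and the 12 genes of the PERK-ATF4 branch on the right, in total KD, N-short KD and N-long KD; filled points passed an adjusted p of 0.05 in edgeR. Of the 10 genes only HERPUD1, HSP90B1 and PDIA4 are filled, in total KD, and 9 of the 12 on the right are filled, also in total KD.

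The isoform knockdowns showed none of these differences at the threshold. In N-short KD 0 of the 10 genes were called, with 0 of 13628 genes in all (0%), 537 of them at an unadjusted p under 0.05 and 0 called by DESeq2. The 10 log2 fold changes lay between -0.10 for DNAJC3 and 0.05 for XBP1, and none had an unadjusted p under 0.05. HERPUD1 stood at 22.7, 21.6, 15.9 and 25.1 CPM in N-short KD, which overlaps the controls, with a log2 fold change of -0.02 (SE 0.091). In N-long KD 0 of the 10 were called, beside 3 of 13628 genes (0.0220%), and the log2 fold changes ran from -0.06 for DNAJC3 to 0.11 for DNAJB9. HERPUD1 stood at 18.2 to 26.5 CPM in the 4 N-long KD libraries, with 0.07 on the log2 scale (SE 0.090). No gene of the PERK-ATF4 branch passed in either isoform knockdown, where the branch had medians of -0.05 (N-short KD) and 0.10 (N-long KD). The isoform knockdowns differed from each other in 0 of the 10 genes and in 2 of all genes (0.0147%), and all 10 fitted differences were between 0.00 and 0.16. DESeq2 also called 0 of the 10 genes in each of these 3 comparisons, in which 0 of the 10 had an unadjusted p under 0.05.

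Total KD and N-long KD, which share no library, differed in the same 3 genes, and this is the test of the difference between their effects. It uses the same total KD libraries as the comparison with control, so the 2 comparisons are not independent. HERPUD1 was higher in total KD by 0.41 (SE 0.082, adjusted p = 0.0028), HSP90B1 was at -0.13 (SE 0.029, adjusted p = 0.012) and PDIA4 at -0.14 (SE 0.035, adjusted p = 0.021, all by edgeR), beside 2.01% of all genes called (0.976% higher and 1.03% lower). The first 24 hr set adds 1 more pair here, in which HERPUD1 of total KD was 1.24 times that of N-long KD (95% interval 1.08 to 1.43) and HSP90B1 0.875 times (0.859 to 0.891). HERPUD1 lost this call without total KD at 48 hr (largest adjusted p of 0.072 over the 14 fits), HSP90B1 without total KD or N-long KD of the first 24 hr set or N-long KD at 48 hr, and PDIA4 without the 24 hr libraries of either N-long KD replicate or of total KD, or without total KD at 48 hr. With the 48 and 96 hr libraries alone, or with a term for time alone, 0 of the 10 genes passed this comparison, and HERPUD1 was the 1 gene that passed the comparison with control. Of the lists, 9 of 12 PERK-ATF4 genes were higher in total KD than in N-long KD, and UGGT1, a folding sensor of glycoproteins, was lower (-0.15, SE 0.034).

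Of 93 introns of the 10 genes tested in total KD against control, 1 was called, beside 0.447% of all 120379 introns. It is an intron of HSP90B1 at chr12:103947431-103947632, with 111, 95.6 and 120 CPM in the controls and 93.0, 83.6 and 101 CPM in total KD. Its log2 fold change was -0.22 (SE 0.053, adjusted p = 0.015 by edgeR), and all 17 HSP90B1 introns tested had a fitted value below 0. All 7 introns of HERPUD1 were above 0, with 4 at an unadjusted p under 0.05, all 9 of PDIA4 were below 0 and all 4 of XBP1 above. The 2 introns of DNAJB9 and the 2 of SDF2L1 were also above 0. The remaining genes had introns on both sides of 0. Above and below were 7 and 19 in HYOU1, 2 and 9 in DNAJC3, 1 and 6 in HSPA5 and 1 and 7 in CALR. In total KD against N-long KD, beside 0.394% of introns called, the HERPUD1 intron at chr16:56935476-56936686 was higher (0.64, SE 0.16, adjusted p = 0.033 by edgeR). It held 5.87, 4.34 and 6.05 CPM in total KD and at most 3.97 CPM in N-long KD, with no overlap. A PDIA4 intron at chr7:149012361-149014903 was lower there (-0.23, SE 0.060, adjusted p = 0.041 by edgeR). Each isoform knockdown against control, and both against each other, had 0 of the 93 introns called by edgeR, beside 0.0116% (N-short KD), 0.0449% (N-long KD) and 0.0307% of all introns, with 4, 0 and 2 of the 93 at an unadjusted p under 0.05.

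The authors' deposited tables of splicing events gave no called event in these genes. Each of the 9 tables held 12 to 25 events in 6 to 8 of the 10 genes. None of these events reached an adjusted p under 0.05 with an inclusion difference of at least 0.1, and 0 had an unadjusted p under 0.05, per the authors' deposited tables. The background of called events in the authors' deposited tables was 0.0518%, 0.118% and 0.0837% for total KD at 24, 48 and 96 hr. It was 0.00888%, 0.00444% and 0.00218% for N-short KD and 0.00699%, 0.0266% and 0.0211% for N-long KD in the same order in the authors' deposited tables. The lowest adjusted p of an event in these genes was 0.805 in the authors' deposited tables, in total KD at 48 hr.

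From 48 to 96 hr 9 of the 10 genes rose and none fell, beside 29.2% of 13415 genes called higher and 29.9% called lower. With 59.2% of all genes called in either direction, the count of 9 stands against a high background. Each time point is 1 library set of 4 libraries, so time and the handling of a set cannot be told apart, and the pairing is by knockdown.

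HSPA5 was at 376, 373, 376 and 380 CPM at 48 hr in control and the total, N-short and N-long knockdowns, and at 603, 588, 574 and 594 CPM at 96 hr. The 4 libraries of a set lay close together and the sets did not overlap. The log2 fold change was 0.71 (SE 0.027, adjusted p = 4.4e-17 by edgeR), and the 4 ratios ran from 1.53 to 1.61. At 24 hr HSPA5 stood at 464 to 468 CPM in the second set and 493 to 566 CPM in the first, so 48 hr was the lowest of the 4 sets. CALR showed the same order of the 48 hr set, with 653 to 705 CPM there, 862 to 929 CPM at 96 hr and 834 to 953 CPM at 24 hr.

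SDF2L1 had the largest fitted rise, 0.86 (SE 0.15, adjusted p = 3.0e-05 by edgeR), on 50 to 102 reads a library. HERPUD1 rose by 0.56 (SE 0.077), and its 4 ratios ran from 1.25 in total KD to 1.58 in N-short KD. CALR, HYOU1 and DNAJC3 each rose by 0.43, with SEs of 0.029, 0.026 and 0.055. HSP90B1 rose by 0.34 (SE 0.023), PDIA4 by 0.18 (SE 0.029) and XBP1 by 0.15 (SE 0.052, adjusted p = 0.014 by edgeR). The XBP1 ratios of single pairs were 1.05 to 1.07 with intervals that include 1, and DESeq2 did not call it (adjusted p = 0.074). DNAJB9 was at 0.23 (SE 0.19, adjusted p = 0.30 by edgeR), with ratios from 0.720 in the controls to 1.80 in total KD.

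Other parts of the secretory pathway moved in the same comparison, in both directions. Of the 19 other ER chaperones and folding enzymes 11 rose and 2 fell, with CRELD2 (0.72), DNAJB11 (0.64), CANX (0.56) and MANF (0.51) at the top and the oxidases ERO1A (-0.71) and ERO1B (-0.46) at the bottom. ER translocation had 10 of 15 higher, led by SEC61A1 (0.68), a channel subunit, and 2 lower. ER-associated degradation had 7 of 18 higher, led by DERL2 (0.81), and 5 lower, with EDEM1 at -0.48. Of the sensors ERN1 fell (-0.67, SE 0.13) as did ATF6 (-0.17, SE 0.051), and EIF2AK3 was at 0.07 (SE 0.061). Cytosolic and mitochondrial heat shock genes had 10 of 14 higher, led by HSPA8 (0.77) and HSPH1 (0.66). The PERK-ATF4 branch went the other way, with 0 higher and 5 lower of 11 tested (DDIT4 -1.75, VLDLR -1.26, ATF3 -0.88, SESN2 -0.76 and CTH -0.76) and ATF4 at 0.02 (SE 0.047). The medians were 0.43 for the 10 genes, 0.20, 0.21, 0.11, 0.08, 0.22 and -0.34 for other chaperones, translocation, degradation, sensors, heat shock and the PERK-ATF4 branch, and -0.0090 over all genes.

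Markers of cell state moved between the same libraries. The summed level of the 7 stem cell markers was 3601 to 3759 CPM at 48 hr and 4067 to 4865 CPM at 96 hr. That of the 5 fibroblast markers was 536 to 579 CPM at 48 hr, with DCN at 0, and 368 to 445 CPM at 96 hr, with DCN and LUM at 0, and that of the 6 melanoma markers with introns was 119 to 122 CPM and 70.7 to 78.5 CPM. Their part in the differences by time was not tested.

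**Figure D3:**
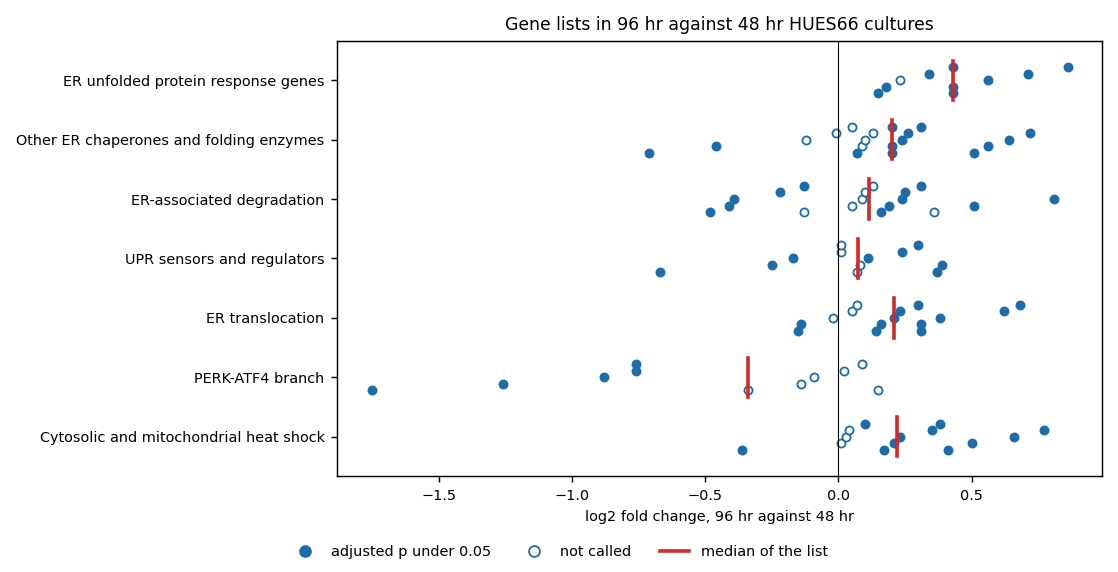
Log2 fold change of 96 hr against 48 hr (horizontal axis) for each gene of 7 lists in HUES66 cells; points are genes, filled where the adjusted p was under 0.05, and red lines are list medians. The 10 genes lie at 0.15 to 0.86 with a median of 0.43, and the PERK-ATF4 branch has a median of -0.34.

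In A375 cells spliced RNA of most of these genes was far lower in the cytoplasmic library than in the nuclear one. HSP90B1 held 2277 CPM in nuclear, 1413 CPM in total and 100 CPM in cytoplasmic RNA, a nuclear to cytoplasmic ratio of 22.8 (95% interval 21.7 to 23.8). HSPA5 held 665, 428 and 36.1 CPM in the same order, a ratio of 18.4 (17.1 to 19.9). Each level is a share of the spliced reads of its own library, so a ratio compares shares and not amounts of RNA per cell. These are 1 library per fraction, so no test was made and intervals cover counting error only. PDIA4 held 316 and 22.6 CPM in nuclear and cytoplasmic RNA (interval of the ratio 12.7 to 15.5). The ratio was 13.3 (12.5 to 14.2) for HYOU1, 11.1 (10.7 to 11.6) for CALR and 8.45 (7.44 to 9.60) for DNAJC3. Thus 6 of the 10 genes were at least 4-fold higher in the nuclear library, and 0 were 4-fold lower. Of 12759 genes whose 2 fractions summed to 20 reads or more, 12.5% were 4-fold higher and 2.56% were 4-fold lower. Nuclear RNA here is that of the washed pellet. RNA of nuclei and any ER-bound RNA left in that pellet cannot be told apart. Only 0.376% of genes had a higher ratio than HSP90B1 and 0.682% a higher one than HSPA5.

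The other 4 genes had smaller ratios. DNAJB9 had a ratio of 3.16 (2.13 to 4.66) on 53 and 58 reads. HERPUD1, at 76.1, 55.1 and 35.0 CPM in nuclear, total and cytoplasmic RNA, had a ratio of 2.17 (1.93 to 2.44). XBP1, at 32.5, 32.5 and 18.8 CPM, had 1.73 (1.45 to 2.06), and SDF2L1, at 3.63, 5.07 and 3.96 CPM, had 0.915 (0.544 to 1.48) on 22 nuclear reads. The median over all genes was 0.929. Every intron of HSPA5, HSP90B1, PDIA4, CALR, HYOU1 and DNAJC3 with enough reads was higher in the nuclear library, with ratios from 4.62 to 30.1, so the difference does not rest on single introns.

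The lists show how far this reaches. Of the 19 other ER chaperones and folding enzymes 15 were at least 4-fold higher in the nuclear library (median ratio 7.58), as were 5 of 15 genes of ER translocation (3.28), 8 of 17 of ER-associated degradation (3.20) and 7 of 12 sensors and regulators (4.61). For PDIA3 the levels were 907 CPM nuclear and 52.4 CPM cytoplasmic, and for CANX 1609 and 133 CPM. Heat shock genes of the cytosol and mitochondria had 0 of 14 past 4-fold and a median ratio of 1.06, and the PERK-ATF4 branch 1 of 12 and 0.641. ATF4 stood at 41.7 CPM in nuclear and 183 CPM in cytoplasmic RNA. Against the total library 7 of the 10 were at least 2-fold lower in cytoplasmic RNA (18.8% of genes) and 0 higher (4.71%), while 0 were 2-fold higher (1.37%) or lower (3.24%) in nuclear RNA. The total library of A375 lay between the fractions for 8 of the 10 genes, at the nuclear value for XBP1 and above both for SDF2L1.

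**Figure D4:**
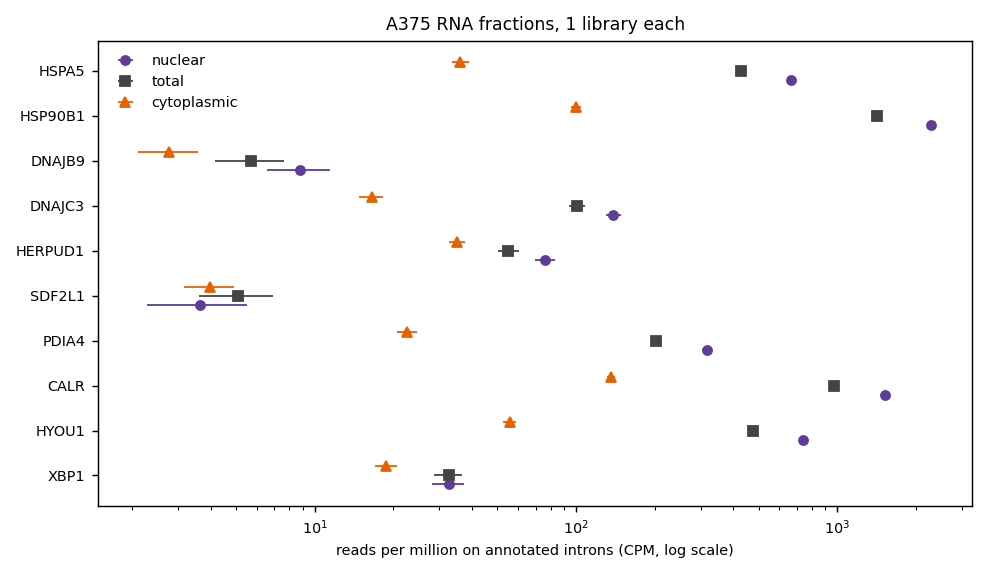
Level of each of the 10 genes (CPM, log axis) in A375 nuclear, total and cytoplasmic RNA, 1 library each, with 95% Poisson intervals. HSPA5, HSP90B1, PDIA4, CALR, HYOU1 and DNAJC3 are 8.45-fold to 22.8-fold higher in nuclear than in cytoplasmic RNA, while the SDF2L1 intervals overlap.

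Of the 10 genes 1, HERPUD1, was at least 2-fold higher in A375 than in wild-type HUES66 cells (22.6% of 13845 genes were) and none was 2-fold lower (22.5%). In HEK293 none was 2-fold higher than in wild-type HUES66 (20.2% of 13620 genes) and 2, PDIA4 and HYOU1, were 2-fold lower (19.9%). A375 and HEK293 are 1 library each, so they are set against the range of the 15 HUES66 libraries and no test was made.

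HERPUD1 held 55.1 CPM in A375, above the HUES66 range of 15.9 to 33.0 CPM (median 23.9), and 30.5 CPM in HEK293, within it. DNAJC3 was also above the HUES66 range in A375, 101 CPM against 46.4 to 67.6 CPM, and within it in HEK293, at 50.9 CPM. CALR in A375 was at 970 CPM, just above the highest of the HUES66 libraries at 953 CPM. XBP1 was lower in both other lines, 32.5 CPM in A375 and 33.9 CPM in HEK293 against 42.1 to 64.6 CPM in HUES66. PDIA4 was likewise below the HUES66 range of 310 to 396 CPM in both, with 203 CPM in A375 and 176 CPM in HEK293.

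HSPA5 was at 428 CPM in A375, within the HUES66 range of 373 to 603 CPM, and at 331 CPM in HEK293, below it. HYOU1 was at 474 CPM in A375, within the range of 460 to 632 CPM, and at 270 CPM in HEK293, below it. HSP90B1 was at 1413 CPM in A375, below the range of 1515 to 1983 CPM, and at 1604 CPM in HEK293, within it. DNAJB9 and SDF2L1 lay within their HUES66 ranges of 2.41 to 6.34 CPM and 3.94 to 9.51 CPM in both lines. The HUES66 libraries alone spanned 1.28-fold for PDIA4 to 2.63-fold for DNAJB9, and a line placed within that range is not separated from HUES66 by these data.

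**Figure D5:**
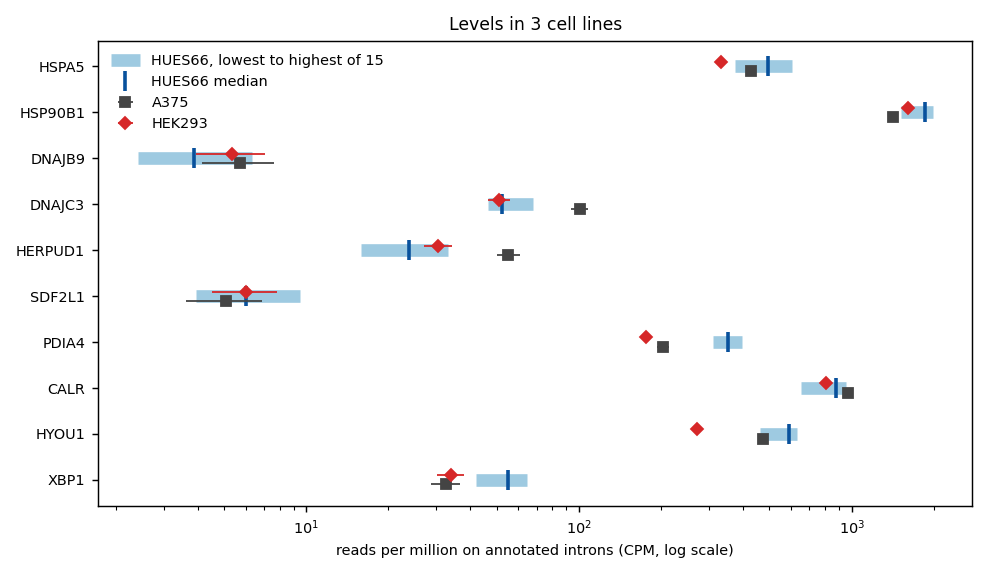
Level of each of the 10 genes (CPM, log axis) in A375 and HEK293 total RNA (1 library each, 95% Poisson intervals) beside the range and median of the 15 HUES66 libraries. PDIA4 and XBP1 are below the HUES66 range in both other lines, and HERPUD1 and DNAJC3 are above it in A375 only.

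Within library sets the 10 genes did not vary as a block. With the mean of each set removed, the 45 pairs of genes had Pearson correlations from -0.84 to 0.94 over the 14 treated libraries (median 0.23), 28 of them above 0. HSP90B1 and PDIA4 were the closest pair (0.94), and HSPA5 with HSP90B1 (0.82), with DNAJC3 (0.76) and with PDIA4 (0.76) came near. HERPUD1 ran against PDIA4 (-0.84) and HSP90B1 (-0.79) and along with XBP1 (0.68). These libraries share their sets and their knockdowns, so the values are descriptions. The 5 other genes closest to the mean of the panel were AJAP1 (0.95), CCDC169 (0.90), MEIOB (0.90), NRBF2 (0.89) and HK1 (0.89). None of them is on the lists above. Their mean levels were 1.65, 13.9, 3.98, 5.88 and 454 CPM in that order. They were picked as the highest of 13618 genes over 14 libraries, so their values are high by selection. The panel mean weighs all 10 genes alike, with the low counts of DNAJB9 and SDF2L1 included. Shared regulation was not tested.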

How the data were processed

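RNA of 19 libraries was analysed from the authors' deposited junction files, which hold the read count of each splice junction. STAR 2.7.1, SAMtools 1.9 and the hg38 build are named per the submitters' processing notes, without their roles. Junction counts were summed over GENCODE 29 introns that belong to 1 gene name, reads on spike-in sequences were set apart, and CPM is scaled to 1000000 such reads. Genes and introns were tested with edgeR 4.0.16 in R 4.3.3 (TMM, filterByExpr, quasi-likelihood test, Benjamini-Hochberg adjustment, called at an adjusted p under 0.05) with terms for knockdown and library set over the 14 doxycycline-treated libraries, or for knockdown and time over the 8 libraries of 48 and 96 hr. Levels of single libraries were compared by ratio, for genes with at least 20 reads in both libraries together, with 0.5 reads added to each on the log2 scale, and no test.

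The authors' deposited p-values, raw and adjusted, and inclusion differences (control minus knockdown, from -1 to 1, per the file headers) were read from 9 splicing event tables, and 69 per-library columns of these tables were not used. The members and lists were chosen with earlier results of these data known. Named genes are the 10 members, RBFOX2, called list genes by size of change, otherwise the 2 of a list with the highest mean level, and the 5 genes most like the members' mean. The library set was chosen as the pairing from the library names. With knockdown means alone removed, same-set libraries deviated together (median r 0.55 over 18 pairs, lowest 0.3). The median was -0.17 over 55 pairs from different sets. Most sets also differ in time, so these values cannot show whether the set or time alone is the better term. Alternatives were RLE factors, DESeq2 1.42.0, no filter, all junctions inside a gene, no library set, the wild-type control, 48 and 96 hr alone, and each library left out; the restriction to 48 and 96 hr and the alternatives for list counts were added after seeing the data. On simulated data, drawn with the fitted spread, 200 genes were changed by a log2 of 1. The test recovered 78.0% in total KD against control (13476 genes), 80.5% in N-long KD against control (13498 genes) and 91.0% by time (13253 genes). False calls were 12, 8 and 14 in that order. No smaller change was simulated, so these shares do not apply to the smaller changes fitted for the 10 genes.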

Additional observations from a re-analysis of the deposited data

Results flagged for a closer look

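Total KD and N-long KD differed in their effects, each against control, in the genes below, by edgeR's test of the difference itself (adjusted p under 0.05, total KD minus N-long KD on the log2 scale). Among the 10 ER genes these were HERPUD1 at 0.41, HSP90B1 at -0.13 and PDIA4 at -0.14. Among other ER genes UGGT1 was at -0.15 and SPCS3, a subunit of the signal peptidase, at -0.20.

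In the PERK-ATF4 branch DDIT4 was at 1.63, CHAC1 at 1.52, SESN2 at 0.93, ATF3 at 0.89 and TRIB3 at 0.80. PSAT1 was at 0.63, CTH at 0.54, VLDLR at 0.34 and ATF4 at 0.24. RBFOX2 itself was lower in total KD than in N-long KD by a value that did not pass (-0.24, SE 0.075, adjusted p = 0.095 by edgeR), and that passed without the filter on low counts (-0.25, adjusted p = 5.3e-04 by edgeR).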

How the results depend on the processing

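Of 505 fold changes recomputed under settings other than leaving out a library, 464 kept their direction and side of the threshold, 24 lost the call, 2 gained it and 15 changed sign. Members called in total KD against control went from 3 to 1 with no replicate block (time alone) and 1 with 48 and 96 hr alone, and stayed between 1 and 3 without single libraries. PERK-ATF4 genes called went from 9 to 3 in DESeq2 and 4 with no replicate block, with 5 to 9 without single libraries. Members called in total KD against N-long KD went from 3 to 0 with no replicate block and 0 with 48 and 96 hr alone, with 1 to 3 without single libraries. Member introns called went from 1 to 2 at a mean of at least 20 reads.

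Counts over all genes in total KD against control were 300, and 62 with no replicate block, 536 with the wild-type control and 162 to 333 without single libraries. Against N-long KD they were 274, 40 with no replicate block, 133 with 48 and 96 hr alone and 149 to 282 without single libraries. Without the filter N-short KD had 4 genes called (0 with it), N-long KD 16 (3 with it) and the difference between these knockdowns 17 (2 with it). The cause of these shifts was not tested.

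Signs turned for small values. With no replicate block CALR was at 0.0035 in total KD; in N-short KD CALR was at 0.02, DNAJB9 at 0.03, HERPUD1 at 0.02, HSPA5 at 0.03, HYOU1 at 0.0042 and SDF2L1 at 0.04; in N-long KD HSP90B1 was at -0.0022, HSPA5 at 0.03 and PDIA4 at 0.01. With 48 and 96 hr alone HERPUD1 in N-short KD was at 0.01, and HSP90B1 and HYOU1 in N-long KD at -0.01 and -0.04. With the wild-type control HSP90B1 in N-long KD was at -0.01, and without the filter HSPA5 there at 0.0012.

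Without single libraries, total KD against control spanned -0.05 to 0.51 for DNAJB9 and -0.18 to 0.29 for SDF2L1. N-short KD spanned -0.03 to 0.03 for CALR, -0.32 to 0.19 for DNAJB9, -0.07 to 0.04 for HERPUD1, -0.02 to 0.01 for HSP90B1, -0.03 to 0.03 for HSPA5, -0.06 to 0.01 for HYOU1, -0.11 to 0.0044 for RBFOX2 and -0.15 to 0.16 for SDF2L1. N-long KD spanned -0.0036 to 0.04 for CALR, -0.16 to 0.35 for DNAJB9, -0.0048 to 0.03 for HSP90B1, -0.02 to 0.01 for HSPA5, -0.03 to 0.04 for HYOU1 and -0.03 to 0.02 for PDIA4. N-long KD against N-short KD spanned -0.01 to 0.04 for CALR, -0.01 to 0.09 for DNAJC3, -0.00054 to 0.04 for HSP90B1, -0.03 to 0.04 for HSPA5, -0.0015 to 0.04 for PDIA4 and -0.04 to 0.30 for SDF2L1. Total KD against N-long KD spanned -0.12 to 0.34 for DNAJB9 and -0.24 to 0.26 for SDF2L1, and 96 hr against 48 hr -0.02 to 0.43 for DNAJB9. TMM factors moved 5 HEK293 ratios by more than their counting interval, to -0.86 for HSPA5, -0.33 for HSP90B1, -1.28 for PDIA4, -0.36 for CALR and -1.32 for HYOU1 on the log2 scale. With 22 to 67 reads of DNAJB9 a library, depth limits that gene most.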
